A study of Mus musculus with 6 samples.

Results

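The core proteins of the spliceosome are described here as transcripts in mouse platelets. The members are the protein-coding genes whose symbols begin with Snrp, Snrnp, Sf3a, Sf3b, Prpf or Lsm, together with U2af2 and Sf1, and 51 of the 9822 genes in the count tables met this rule. The RefSeq table named 59 such genes. The other 8 (Lsm5, Lsm7, Lsmem2, Prpf40b, Snrnp35, Snrpf, Snrpn and U2af1) had no row in the tables and were not analysed here. Lsmem1 was taken in by its name alone, since it encodes a leucine-rich membrane protein and not an LSm protein. Platelets of males heterozygous for the Nxf1 C587R change (Nxf1+/C587R) were compared with those of wild-type littermates, both on the BalB/c background, with 3 libraries per genotype. Suspensions entered a pool only if flow cytometry showed them to be almost entirely CD41+, CD41 being a platelet surface integrin, and the wild-type libraries are also part of another deposited series. Nxf1 encodes the main receptor for the export of mRNA from the nucleus. Each library was a pool of purified suspensions of 1 genotype, and 1 mutant and 1 wild-type pool carried each of 3 batch numbers, taken here as the 3 preparation days. Neither the age of the animals nor the number in a pool is given in the sources used here.

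The spliceosome removes introns from pre-mRNA. Each of its small nuclear ribonucleoproteins (snRNPs) is a small RNA bound by a ring of Sm or LSm proteins and by proteins of its own. U1 marks the start of an intron, SF1 and U2AF mark its end and branch point, U2 with SF3A and SF3B then takes over the branch point, and the U4/U6.U5 tri-snRNP brings in the catalytic parts. A minor spliceosome with U11 and U12 handles a small class of introns. Platelets have no nucleus, yet spliceosome proteins and the splicing of some pre-mRNAs have been described in human platelets.

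The libraries held 25189231 to 29421549 counts. Levels are given as CPM, counts scaled to a common total, with totals adjusted by the trimmed mean of M-values (TMM). The tables listed genes above 0.5 CPM in at least 3 libraries, and 46 members were above it in all 6. Lsm2, Snrpg and Snrpd1 were above it in all 3 wild-type libraries and in fewer than 3 mutant ones. The remaining exceptions, Snrnp48 and Lsm11, had 12 to 25 and 4 to 23 counts per library. The TMM factor was highest, at 1.19, in wild-type replicate 3, against 0.912 to 1.05 in the others. All 13 platelet markers had a row, and 5 were higher and 2 lower in the mutant by edgeR at an adjusted p of 0.05. Over all genes 12.9% were higher and 9.16% lower. The summed level of the markers was 46552 to 51301 CPM in mutant libraries against 37285 to 45359. The level of Nxf1 itself averaged 3.29 ± 0.894 CPM in the mutant pools, against 3.73 ± 1.05 in the wild-type ones (SD, n = 3 each, edgeR adjusted p = 0.604), and it does not check the genotype, since a missense change need not alter the amount of mRNA.

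In wild-type platelets Lsm12 stood far above the other members. To compare genes, the CPM was divided by the length of the gene model in kilobases. The median member had 2.42 CPM per kb in wild-type platelets, beside 1.44 over all genes. Lsm12, which encodes a cytoplasmic protein described as a receptor for the calcium-mobilising messenger NAADP, had 400.9 ± 54.5 CPM per kb (SD, n = 3). Lsm3 of the LSm ring came next with 55.8 ± 8.47 CPM per kb, and Snrnp25 of U11/U12 followed with 17.3 ± 2.61. Sf3b6, the SF3B subunit that contacts the branch point adenosine, had 11.5 ± 0.629 CPM per kb, and Snrpb of the Sm ring had 10.7 ± 1.18. Sf3b6 and Snrpb, neighbours in this order, differed by less than the sum of their SDs, and the 3 genes above them were each farther apart. Genes whose proteins sit in equal numbers in a ring had transcripts of unequal level, and the proteins were not measured. The 6 Sm ring genes ran from 0.942 CPM per kb in Snrpd1 to the value of Snrpb, and the 5 LSm ring genes from 0.688 in Lsm2 to that of Lsm3. Snrpd1 and Lsm2 rest on 14 to 32 and 15 to 28 counts per wild-type library. Small snRNP genes have processed pseudogenes, so reads could be shared and single levels are uncertain.

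**Figure D1:**
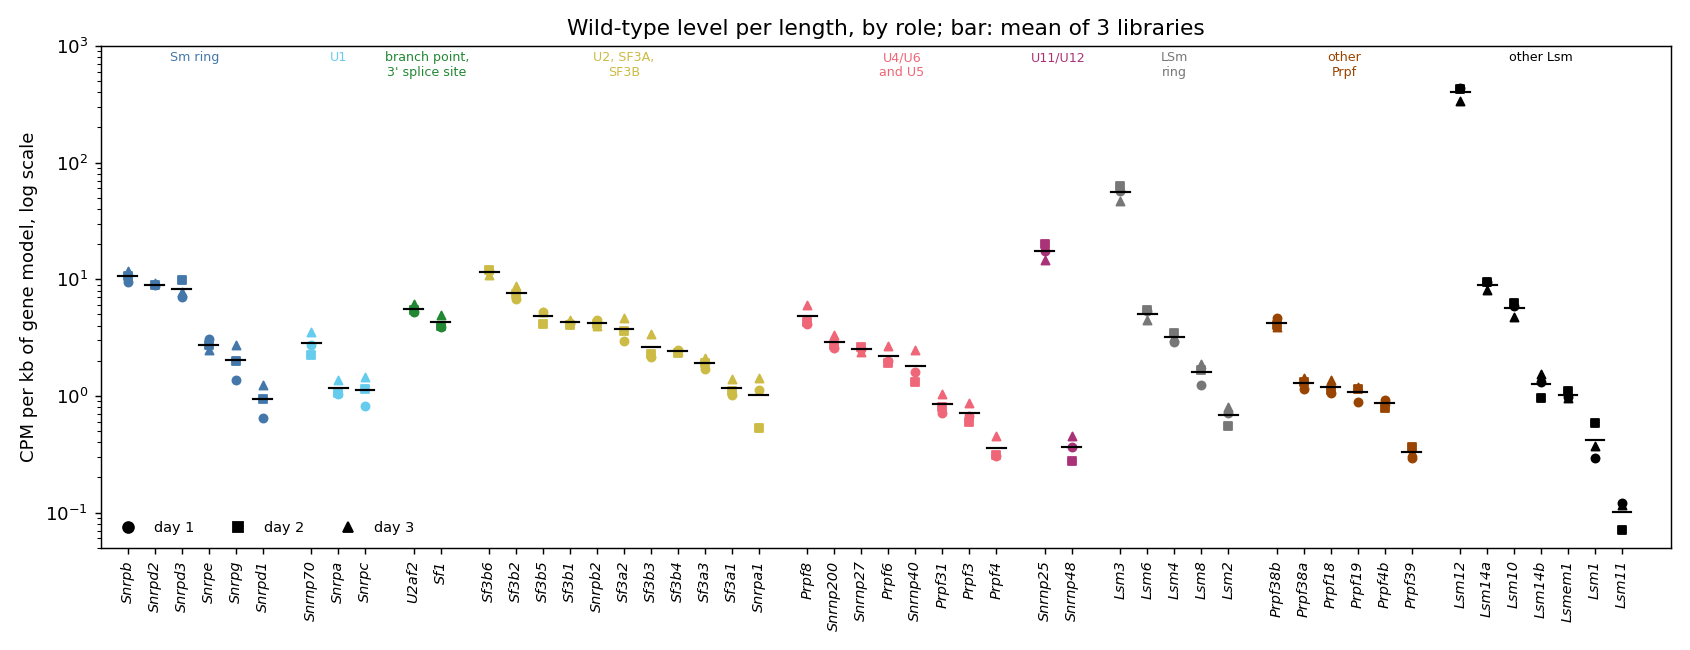
Level of 50 of the 51 members in the 3 wild-type libraries, in CPM per kb of gene model on a log axis, grouped by role, with bars at the means. Lsm12 lies near 400.9 CPM per kb and Lsm3 near 55.8, while the median member has 2.42.

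Lsm12 also held most of the reads of the group. All members together took 0.0951%, 0.0948% and 0.0947% of counts in the mutant libraries of days 1, 2 and 3, and 0.0869%, 0.0862% and 0.0978% in the wild-type ones, and these ranges overlap. As a summed level, all members together had 1043.1, 986.9 and 901.2 CPM in the mutant libraries of these days. The wild-type sums were 905.4, 903.1 and 824.5 CPM. The mutant was thus higher on each day, although the ranges overlap. Without Lsm12, the summed level of the other 50 was 343.0, 360.1 and 357.6 CPM in the mutant. In the wild type it was 368.2, 382.5 and 410.3 CPM. On this scale, and only without Lsm12, the mutant libraries were all below the wild-type ones. As a share of counts, the same 50 took 0.0313%, 0.0346% and 0.0376% in the mutant and 0.0353%, 0.0365% and 0.0487% in the wild type, which overlap. In such bulk samples fewer cells of a type and less RNA per cell cannot be told apart.

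Of the 51 members, 5 fell in the mutant (Snrnp200, Prpf3, Snrpa, Snrpd3 and Sf3b5) and 1 rose (Snrnp25), by edgeR's quasi-likelihood test at a Benjamini-Hochberg adjusted p of 0.05 over all 9822 genes. The share of members that fell, 9.80%, was close to the 9.16% of all genes that fell. The share that rose, 1.96%, was below the 12.9% of all genes that rose. The direction was less even than the calls. Log2 fold changes were below 0 for 41 of 51 members (80.4%) and for 54.3% of all genes, and their median was -0.27 for members and -0.04 for all genes. Without wild-type replicate 3 these medians were -0.14 and 0.00. In the other fits that left out a library or a day, the median was -0.21 to -0.34 for members and -0.03 to -0.10 for all genes. With library size alone the medians were -0.36 for members and -0.13 for all genes.

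Pools of the same day varied together, so the day was also fitted as a block. With it, 17 members (33.3%) were lower and 5 (9.80%) higher, against 18.0% and 22.0% of all genes. Without day 1 the blocked counts were 13 and 1, while 1417 of 9819 genes were lower. The count of all genes higher in that fit is not given here. DESeq2 with the same block gave an adjusted p to 48 members and called fewer, 6 lower (12.5%) and 2 higher (4.17%), against 10.3% and 17.8% of the genes it tested. Within the days, the log2 ratio of mutant over wild type was below 0 on all 3 days for 28 members (54.9%, against 30.7% of all genes). It was above 0 on all 3 days for 7 (13.7%, against 30.1%). All mutant libraries lay below all wild-type libraries for 15 members (29.4%, against 15.9%) and above them for 4 (7.84%, against 20.4%). Snrpg is in the 28 and the 15, and among the members below 0 given above, although the choice of genes favoured its direction. The members' median log2 ratio was -0.19, -0.17 and -0.28 on days 1, 2 and 3.

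The 31 members under 5 CPM had a median log2 fold change of -0.29 and the 20 others -0.15, while the medians of all genes in the same ranges were -0.14 and 0.10. Most B cell markers were lower in the same libraries. Of 17 such genes, all with a row, 5 fell by edgeR, among them Cd79a and Cd74, against 13 in the blocked fit. Over all genes 9.16% and 18.0% fell in these fits. In the blocked fit 1 marker, Cd37 (0.18), was higher. Their summed level ran from 363.2 to 448.7 CPM over the mutant libraries and from 451.1 to 601.4 over the wild-type ones. Of 13 T cell markers 11 had a row, and 9 of these had a log2 fold change below 0 (median -0.23), beside 54.3% of all genes. Themis was lower and Lat, which platelets also express, was higher, and with the block 4 were lower and 1, Lat, was higher. Their sum was 199.6 to 249.6 CPM in the mutant against 155.1 to 202.5, and most of it was Lat, with means of 202.9 and 146.4 CPM. Of 15 granulocyte and monocyte markers 7 had a row, of which Ly6c2 was lower and Lyz2 higher, and with the block 2 were lower and 2 higher. Their sum was 1783 to 2095 CPM against 1169 to 1608, nearly all of it Lyz2, with means of 1913 and 1358 CPM. Of 13 erythroid markers 10 had a row. For these edgeR called 0 with genotype only, and 1 lower and 3 higher with the block. Their sum ran from 3974 to 31530 CPM over the mutant libraries and from 4310 to 35729 over the wild-type ones. The part of leukocyte or red cell RNA, or of level, in the members' values was not tested.

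**Figure D2:**
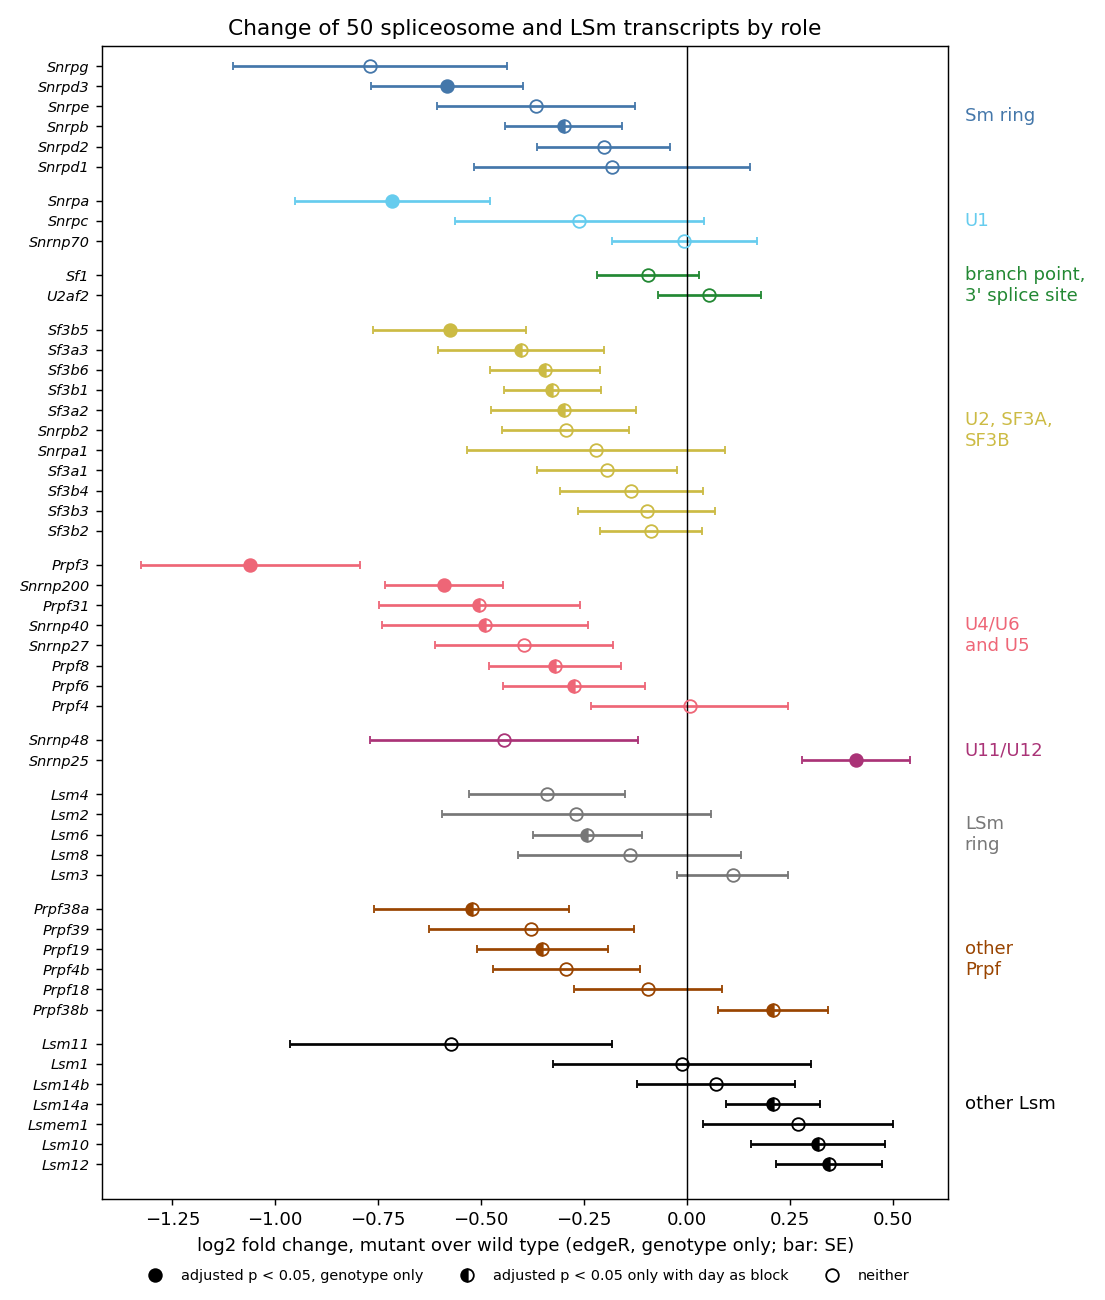
Log2 fold change of 50 of the 51 members, mutant over wild type, with its SE (edgeR, genotype only, 3 libraries per genotype), grouped by role. Filled points passed the test (6 members), half-filled ones passed with the day as a block but not with genotype only (16 members), and open ones passed neither of these fits.

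Promoter sequences are shown for the called members with a single RefSeq start, 2 that fell and 1 that rose, so that the regulatory DNA can be read beside the change. Each is the 250 bases before the start on the plus strand, from RefSeq on GRCm38.p6. Snrnp200 lies at chr2:127208136-127208385, Snrpd3 at chr10:75517792-75518041 and Snrnp25 at chr11:32205165-32205414. Capitals mark matches, on either strand, to the ETS motif CCGGAAG, the NRF1 motif TGCGCATGC, the GC box GGGCGG, the CCAAT box CCAAT and the TATA box TATAAA.
Snrnp200: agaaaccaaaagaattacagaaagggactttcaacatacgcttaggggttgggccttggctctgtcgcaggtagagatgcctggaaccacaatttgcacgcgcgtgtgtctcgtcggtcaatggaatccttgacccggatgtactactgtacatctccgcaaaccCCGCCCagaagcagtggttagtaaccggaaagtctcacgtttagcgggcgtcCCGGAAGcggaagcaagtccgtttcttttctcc
Snrpd3: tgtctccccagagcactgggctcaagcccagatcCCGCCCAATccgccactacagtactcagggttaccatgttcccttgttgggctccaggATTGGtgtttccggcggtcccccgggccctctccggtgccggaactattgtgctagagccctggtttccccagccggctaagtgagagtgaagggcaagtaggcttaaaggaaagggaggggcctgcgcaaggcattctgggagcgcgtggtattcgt
Snrnp25: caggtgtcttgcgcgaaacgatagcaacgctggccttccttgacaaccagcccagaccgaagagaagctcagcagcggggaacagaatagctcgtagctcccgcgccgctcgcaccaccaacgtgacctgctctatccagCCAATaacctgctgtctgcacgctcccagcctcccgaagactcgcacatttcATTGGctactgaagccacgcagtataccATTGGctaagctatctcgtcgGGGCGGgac
Snrnp200 has an ETS match that begins 33 bases before the start, and a GC box at 85. Snrnp25, which moved the other way, has CCAAT matches that begin 30, 58 and 110 bases before the start and a GC box at 9. Snrpd3 has CCAAT matches at 158 and 212, and the latter shares letters with a GC box at 216. Among the 40 members with a promoter entry, 35% held the ETS motif, beside 16.9% of the 7606 tested genes with an entry. For the other motifs the shares were 7.5% and 3.09% for NRF1, 62.5% and 64.6% for the GC box, 37.5% and 40.3% for CCAAT, and 7.5% and 7.86% for TATA. A match describes letters only.

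Of the 8 genes for proteins of the U4/U6.U5 tri-snRNP, 2 fell, beside 9.16% of all genes. Snrnp200 (Entrez 320632, chromosome 2, 127208386 to 127240453), the helicase that unwinds U4 from U6, had 17.4, 18.6 and 22.4 CPM in the wild-type libraries of days 1, 2 and 3 and 10.96, 12.3 and 15.6 CPM in the mutant ones. The genotypes did not overlap, and day 3 was the highest day in both. It fell by 0.59 ± 0.14 on the log2 scale (SE, edgeR adjusted p = 0.00507), and it passed in all 17 alternatives, with adjusted p at most 0.0475. Here and below, the alternative with no filter repeats the main fit, so it is a pass for every called member. Prpf3 (Entrez 70767, chromosome 3, 95830124 to 95855885), a U4/U6 protein, had 1.86, 1.62 and 2.36 CPM in the wild type and 0.820, 1.31 and 0.705 CPM in the mutant. These levels rest on 39 to 73 and 19 to 32 counts per library, and the genotypes were closest on day 2. Its log2 fold change of -1.06 ± 0.27 (SE, adjusted p = 0.00651 by edgeR) was the largest of all members. Without both pools of day 3 it was -0.71 (adjusted p = 0.0772 by edgeR).

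The other 6 members of this role did not pass. Prpf8, the scaffold of the catalytic centre and the most abundant of them per length, had 30.9, 32.5 and 45.2 CPM in the wild type and 23.5, 28.3 and 35.3 CPM in the mutant. The genotypes overlapped, although the mutant was the lower of the pair on each day. Its log2 fold change of -0.32 had an adjusted p of 0.179, and of 7.73e-05 with the block, by edgeR. Prpf31 (-0.50), which holds U4/U6 together with U5, Snrnp40 (-0.49) and Prpf6 (-0.27), both of U5, also passed with the block and not with genotype only, at adjusted p of 0.0108, 0.014 and 0.0463 by edgeR. Snrnp40 passed as well without mutant replicate 3 (-0.75, adjusted p = 0.0233 by edgeR), as did Prpf8 (-0.49, 0.014). Snrnp27 had -0.40 and Prpf4, the partner of Prpf3, had 0.01, and neither passed either fit. Mutations of the human counterparts of several genes of this role, called and not called, are known causes of retinitis pigmentosa.

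**Figure D3:**
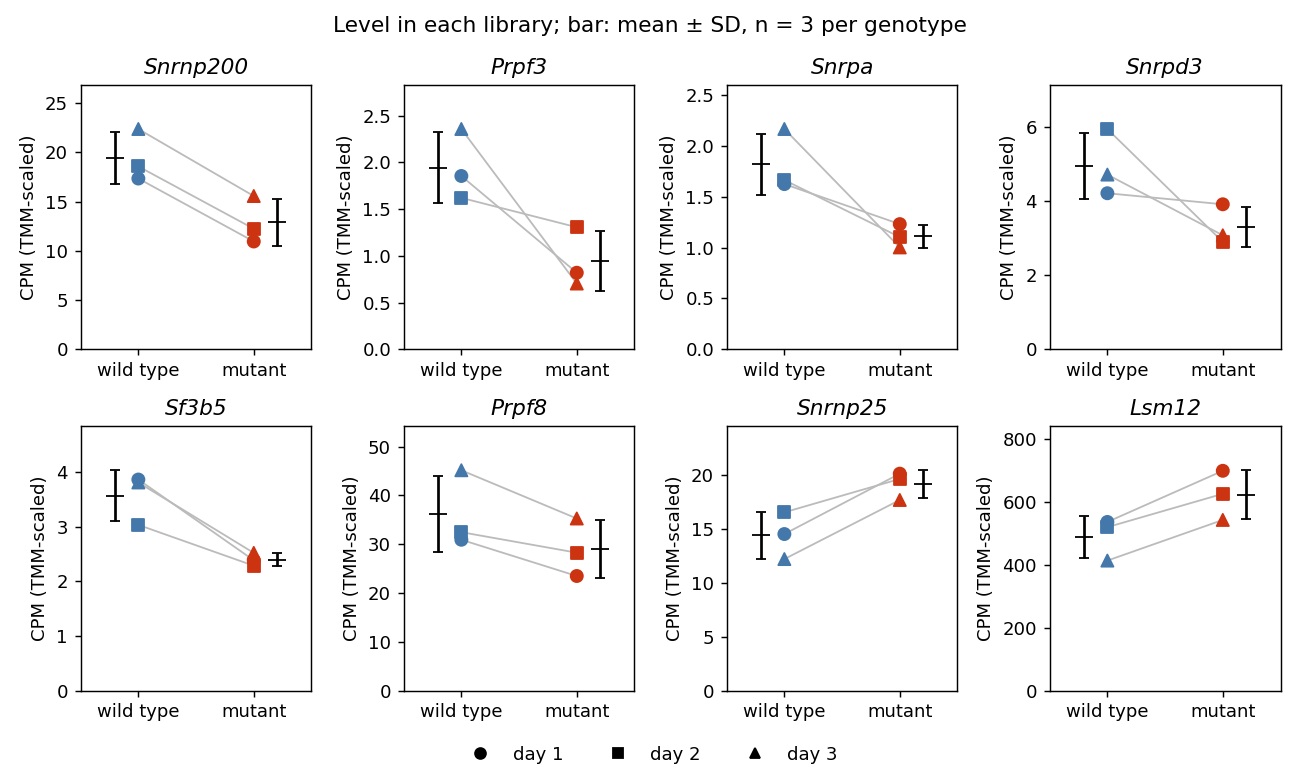
TMM-scaled CPM of 8 members in each library, with lines joining the pools of a day and bars for the mean ± SD (n = 3 per genotype). The mutant pool is lower on each of the 3 days in Snrnp200, Prpf3, Snrpa, Snrpd3, Sf3b5 and Prpf8 and higher on each in Snrnp25 and Lsm12.

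Among U1 proteins only Snrpa passed. It encodes the A protein of U1, which binds a stem-loop of U1 RNA (Entrez 53607, chromosome 7, 27187006 to 27196271). Its levels were 1.62, 1.66 and 2.16 CPM in the wild type and 1.23, 1.10 and 1.00 CPM in the mutant, from 27 to 67 counts per library, and the genotypes did not overlap. Snrpa fell by 0.71 ± 0.24 on the log2 scale (SE, edgeR adjusted p = 0.0347), and it passed in 8 of 16 alternatives. Adjusted p was 0.0883 by DESeq2 and 0.156 by DESeq2 with the block. By edgeR it was 0.133 without wild-type replicate 3, and up to 0.21 with another library or day left out. Snrnp70, also of U1, had 4.44, 3.70 and 5.81 CPM in the wild type and 4.96, 4.45 and 4.56 CPM in the mutant. Its genotypes overlapped (log2 fold change -0.01 ± 0.18, SE), and Snrpc had -0.26 ± 0.30.

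The 6 genes of the Sm ring all had a log2 fold change below 0 and were below 0 on every day, beside 54.3% and 30.7% of all genes. For Snrpg this direction was favoured by the choice of genes, since it was above 0.5 CPM in the 3 wild-type libraries and in 0 mutant ones. Snrpd3 (Entrez 67332, chromosome 10, 75518042 to 75535440), which encodes Sm D3, fell from 4.96 ± 0.891 to 3.30 ± 0.542 CPM (SD, n = 3 each). Its libraries had 4.21, 5.94 and 4.72 CPM in the wild type and 3.91, 2.90 and 3.08 CPM in the mutant, so the genotypes were close on day 1 and far apart on day 2. This was a log2 fold change of -0.58 ± 0.18 (SE, edgeR adjusted p = 0.0274), and without both pools of day 2 it was -0.39 (adjusted p = 0.37 by edgeR). Snrpb, of Sm B, had 10.7, 11.97 and 13.3 CPM in the wild type and 8.57, 9.31 and 11.3 CPM in the mutant, which overlap. Its log2 fold change of -0.30 passed with the block (adjusted p = 0.00484) and not with genotype only (0.148), by edgeR, except without mutant replicate 3 (-0.42, 0.0481). Snrpg had the lowest value, -0.77 ± 0.33 (SE), from 11 to 33 counts per library, and Snrpe, Snrpd2 and Snrpd1 had -0.37, -0.20 and -0.18, none of them past either fit.

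All 11 genes of U2, SF3A and SF3B, which recognise the branch point, had log2 fold changes below 0, beside 54.3% of all genes. Of the 11, Sf3b5 passed. Sf3b5 (Entrez 66125, chromosome 10, 13008450 to 13009183), a small subunit of SF3B, is the only member with a single annotated exon. It had 3.86, 3.03 and 3.81 CPM in the wild type and 2.39, 2.29 and 2.52 CPM in the mutant, with no overlap. Sf3b5 fell by 0.58 ± 0.19 on the log2 scale (SE, edgeR adjusted p = 0.0308), and it passed in 7 of 16 alternatives. Adjusted p was 0.0564 by DESeq2 and up to 0.171 by edgeR with a library or day left out. Sf3b1, the SF3B scaffold whose human counterpart is often mutated in myelodysplastic syndromes, had -0.33 ± 0.12 (SE, adjusted p = 0.0527, and 9.38e-05 with the block, by edgeR), and it passed in 6 of 17 alternatives.

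Sf3b6 had 13.2, 13.3 and 12.05 CPM in the wild type and 9.81, 11.6 and 8.94 CPM in the mutant. The genotypes did not overlap, and its log2 fold change of -0.34 passed with the block (adjusted p = 0.000542, against 0.0739 with genotype only, by edgeR). It passed in 7 of 17 alternatives, among them upper-quartile scaling (0.0382). Another, for Sf3b6 as for Sf3b1, was the fit of genes averaging 10 CPM or more, where the scaling was also recomputed. Sf3a3 (-0.40) and Sf3a2 (-0.30) passed with the block, at 0.031 and 0.0392, and in no other alternative. The other 6, Snrpb2, Snrpa1, Sf3a1, Sf3b2, Sf3b3 and Sf3b4, lay between -0.29 and -0.09 and passed neither fit. Sf3b3 overlaps Cog4, and Prpf39 overlaps Fkbp3, so both values are uncertain, since the library kit does not mark strand.

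The genes that mark the end of an intron before U2 binds did not differ detectably. U2af2, of the large U2AF subunit, had 11.5, 11.97 and 13.4 CPM in the wild type and 12.6, 13.5 and 12.3 CPM in the mutant. Sf1, for the branch point binding protein, had 17.0, 17.3 and 21.6 CPM in the wild type and 17.0, 17.5 and 17.9 CPM in the mutant. The genotypes overlapped in both, with log2 fold changes of 0.05 ± 0.12 and -0.09 ± 0.12 (SE). The sign of U2af2 changed in 7 of its 17 alternatives.

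Of the minor spliceosome, Snrnp25 was the member that rose. It encodes the 25K protein of U11/U12 (Entrez 78372, chromosome 11, 32205415 to 32208996). It had 14.5, 16.5 and 12.2 CPM in the wild type and 20.1, 19.6 and 17.7 CPM in the mutant, and every mutant library lay above every wild-type one. Snrnp25 rose by 0.41 ± 0.13 on the log2 scale (SE, edgeR adjusted p = 0.0276), and by edgeR its value was 0.25 (adjusted p = 0.0552) when only genes averaging 10 CPM or more were kept, where the scaling was also recomputed. It passed in 10 of 17 alternatives, with adjusted p up to 0.254. Snrnp48 of the same particle had -0.44 ± 0.33 (SE) and did not pass. Among 10 other genes tied to the minor spliceosome or its introns, Zrsr1 (-1.16) and Zrsr2 (-0.58), proteins related to the small U2AF subunit, fell, with adjusted p of 0.000268 and 0.00706 by edgeR. Both are uncertain, since Zrsr1 overlaps Commd1 and Zrsr2 overlaps Ap1s2.

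**Figure D4:**
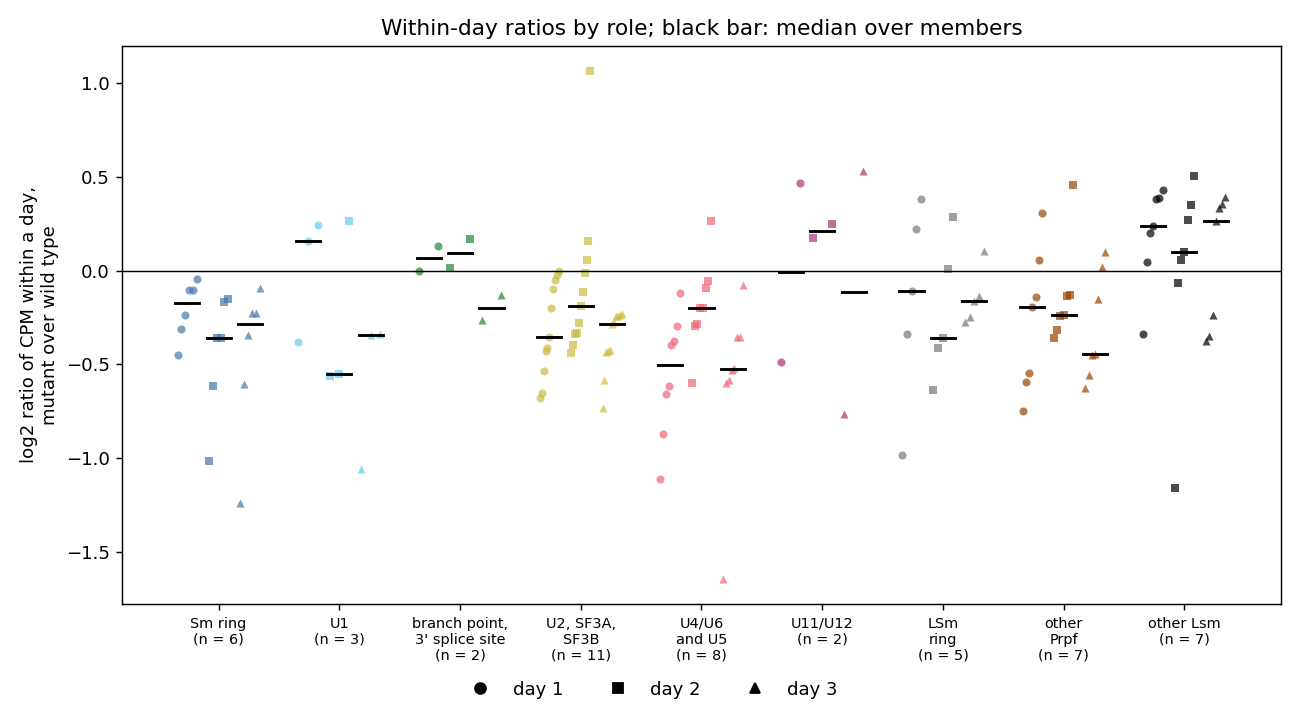
Log2 ratio of mutant over wild-type CPM within each day for every member, grouped by role, with a black bar at the median of the members. Medians of U4/U6 and U5, of U2 with SF3A and SF3B, of the Sm ring, of the LSm ring and of the other Prpf genes are below 0 on all 3 days, and those of the other Lsm genes, which act outside the spliceosome, are above 0 on all 3.

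The 5 genes of the LSm ring, which binds U6 RNA, all had adjusted p above 0.05 with genotype only, with log2 fold changes from -0.34 in Lsm4 to 0.11 in Lsm3. Lsm3 had 36.0, 40.1 and 29.5 CPM in the wild type and 42.0, 40.3 and 31.7 CPM in the mutant, which overlap. Lsm6 (-0.24) passed with the block (adjusted p = 0.0082 by edgeR) and, without it, when only genes averaging 10 CPM or more were kept (-0.41, 0.0104). There the scaling was also recomputed, and Lsm3 moved down too, from 0.11 to -0.05. Lsm2 (-0.27) and Lsm8 (-0.14) passed neither the genotype-only nor the blocked fit.

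The 7 genes of the other Lsm group had a median log2 fold change of 0.21, against -0.27 for the members as a whole, and this difference was not tested. Lsm12 (Entrez 268490, chromosome 11, 102162497 to 102186268) had 537.2, 520.6 and 414.2 CPM in the wild type and 700.1, 626.8 and 543.6 CPM in the mutant. The lowest mutant library exceeded the highest wild-type one, and day 3 was the lowest in both. Its log2 fold change of 0.35 ± 0.13 (SE) had adjusted p = 0.0627 by edgeR and 1.81e-06 in the blocked fit, and it passed in 5 of 17 alternatives, library size alone among them (0.012). Lsm14a, a component of processing bodies, had 0.21, and Lsm10, of the U7 particle that processes histone mRNA, had 0.32, and both passed with the block alone of the alternatives (adjusted p of 0.0147 and 0.0217 by edgeR). Lsm11, the partner of Lsm10 in U7, had -0.57 ± 0.39 (SE) from 4 to 23 counts per library. Lsm14b (0.07), Lsm1 of the decay ring (-0.01) and Lsmem1 (0.27) passed neither fit.

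Of the 7 other Prpf genes 6 had log2 fold changes below 0, beside 54.3% of all genes, and all 7 had adjusted p above 0.05 by edgeR. Prpf19, the ubiquitin ligase that gives the Prp19 complex its name, had 5.64, 7.32 and 7.62 CPM in the wild type and 4.92, 5.68 and 5.56 CPM in the mutant. The genotypes overlapped slightly, and its value of -0.35 passed with the block (adjusted p = 0.00885 by edgeR) and without wild-type replicate 1 (-0.51, 0.0431). Prpf38a (-0.52) passed with the block (0.0255). Prpf38b went the other way, with 13.9, 12.2 and 11.7 CPM in the wild type and 14.5, 16.7 and 12.6 CPM in the mutant. Its genotypes overlapped, and its log2 fold change of 0.21 passed narrowly with the block (adjusted p = 0.0499 by edgeR). The kinase gene Prpf4b, Prpf39 and Prpf18 lay between -0.38 and -0.09 and passed neither fit.

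Prpf19, Sf1 and Sf3b2 lie on chromosome 19 at 2.12, 2.38 and 3.46 Mb from Nxf1, and their genotype-only adjusted p was 0.13, 0.649 and 0.672 by edgeR. Of these, Prpf19 passed with the block, as given above. Sf3b2 had 21.8, 23.9 and 28.4 CPM in the wild type and 21.4, 24.9 and 23.5 CPM in the mutant, which overlap. Exon numbers differed widely, since the 5 members that fell had 1 to 45 annotated exons, and the 22 members with at least 10 exons had a median log2 fold change of -0.28, beside -0.26 for the 29 with fewer.

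The proteins that work with these snRNPs were examined in 6 further lists, none of which holds a member. Of 113 such genes with a row, 10 (8.85%) were lower and 2 (1.77%) higher by edgeR, beside 9.16% and 12.9% of all genes. In the blocked fit 25 (22.1%) were lower and 6 (5.31%) higher, beside 18.0% and 22.0%. Their median log2 fold change was -0.17, and 87 (77.0%) were below 0, beside 54.3% of all genes. Among 18 partners of U2 and the early complexes Smndc1 (-0.57) was lower. Among 18 tri-snRNP partners Snu13 (-0.63), which binds U4 RNA, and Txnl4a (-0.39), a U5 protein, were lower, and Smu1 (0.46) was higher.

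Of 33 genes of the Prp19 complex and the catalytic stages, Ppie (-0.92), a cyclophilin, Cdc5l (-0.75), a core protein of that complex, and the helicase gene Aqr (-0.52) fell, and Ccdc12 rose by 0.53 on the log2 scale. Of 25 genes for the assembly and transport of snRNPs, Ncbp2 (-0.97) of the cap-binding complex and Phax (-0.87), the export adaptor of small nuclear RNA, were lower. The value of Phax is uncertain, since it overlaps Aldh7a1. Of 9 cytoplasmic decay genes that act with the Lsm1 ring, edgeR and DESeq2 each called 0 with genotype only, with 2 lower and 1 higher at an unadjusted p of 0.05 by edgeR. With the day as a block edgeR called 2 lower, the helicase gene Ddx6 (-0.32) and Patl1 (-0.33), and 1 higher, the decapping gene Dcp1b (0.49), which are named after their values were seen. The value of Dcp1b is uncertain, since it overlaps Cacna1c.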

How the data were processed

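PolyA RNA of platelet pools was sequenced, 3 per genotype. The deposited values are raw counts for each gene, beside its length, per the file headers. CASAVA 1.8.2, Subread, featureCounts and the mm10 build are named in the submitters' processing notes, and how they were set (strand, reads with several hits) is not stated there. Of the Entrez identifiers, 9636 took a symbol from RefSeq (GRCm38.p6), 2 from GENCODE M21 and 184 none, and exon numbers are the largest of any GENCODE transcript.

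edgeR 4.0.16 (R 4.3.3) was fitted to all 9822 genes (TMM, robust quasi-likelihood fit, genotype only, two-sided). The filter filterByExpr removed 0 genes. The SE is the log2 fold change divided by the square root of F, and within-day ratios used a prior count of 2. Alternatives were 3 other scalings, DESeq2 1.42.0, a mean of at least 10 CPM, no filter, each library or day left out and the day as a replicate block. Since the filter removed 0 genes, the fit with no filter equals the main one and is no separate check. The block without day 1 was added after the data were seen. The fits were tested on simulated data.

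The batch label pairs the libraries: deviations from group means of same-day pools correlated at 0.431, 0.271 and 0.482, and those of different days at -0.0104 or lower. Centring on group means ties these values together, so the negative ones follow in part from the same-day ones. All pairs of libraries of a genotype differed beyond sampling noise. The mean chi-square per gene between their counts was 85.1 to 103.6 for pairs with day 1. Between days 2 and 3 it was 17.9 in the wild type and 14.5 in the mutant. The animals behind a pool are not described, so a p-value reflects only pool-to-pool spread.

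The members and lists were chosen with earlier results of these data known. Named with values per library were the members past the test, the highest per length of each role and those within 10 Mb of Nxf1, members past only the blocked test were given by fold and p, and the others by value or range. The result of 1 member is not reported here by itself, and it is left out of the plots that name genes. Of the other lists, up to 4 genes past the test were named by smallest p.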

Additional observations from a re-analysis of the deposited data

How the results depend on the processing

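The 5 members that fell and 1 that rose kept their direction in every alternative run. Of the other 45, 15 changed sign in at least 1. With the day as a replicate block edgeR called 17 members lower and 5 higher, 1765 and 2164 of all genes and 25 and 6 of the partner genes. Without day 1 the blocked fit called 13 members and 1417 of 9819 genes lower. DESeq2 called 3 members lower, and 2 higher with the block. With library size alone 2 members and 1 partner gene were higher, the former out of 6 called against 1 of 6. With only genes averaging 10 CPM or more, where 15 members were tested and the scaling was recomputed, 0 members, 723 genes and 1 partner gene were higher.

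Leaving out a library or a day by edgeR gave 2 to 8 members lower and 0 to 2 higher, 520 to 1002 and 485 to 1387 of all genes, and 4 to 15 and 0 to 4 of the partner genes. The members lower were 3 without mutant replicate 2, 8 without mutant replicate 3, 2 without day 2 and 3 without day 3. The member higher was lost without mutant replicate 1 or 2, wild-type replicate 1 or 3 and days 1 or 2. Without mutant replicate 3, or without day 3, 2 members were higher. Depth limits members of few counts, such as Snrpg, Snrnp48 and Lsm11.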
